A study of Mus musculus with 3 samples.

Results

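The regions described here are windows around 8 genes of the Notch pathway in the embryonic mouse cortex, and the data are the Tbr2 and Neurog2 binding peaks inside them. The genes are the ligand genes Dll1, Dll3 and Jag1, the glycosyltransferase gene Mfng, the receptor gene Notch1 and the Hes family genes Hes1, Hes5 and Hes6. Each window spans 300 to 350 kb of the mm9 genome, 2.54 Mb in all, and a peak was counted as a member when its midpoint lay inside. The windows held 28 of 14539 Tbr2 peaks and 18 of 2640 Neurog2 peaks. The rule for membership uses position alone. The windows and genes were, however, chosen with earlier results of these data known, so comparisons with the rest of the genome are descriptive.

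ChIP-seq, the sequencing of DNA fragments that an antibody pulls down with a bound protein, was done on cerebral cortices of wild-type C57BL/6 mouse embryos at E14.5, a stage when excitatory neurons are being made. All 3 libraries came from this tissue: 1 with an antibody against Tbr2, 1 with an antibody against Neurog2 and 1 of input chromatin, for which no peaks were analysed here. Tbr2 is the T-box transcription factor encoded by Eomes and marks intermediate progenitors, and Neurog2 is a basic helix-loop-helix factor that promotes neuronal fate. With 1 library per factor there is no replicate error, and neighbouring peaks of a window are not replicates, so no difference below was tested. The tissue label could not be checked against marker genes, because peaks carry no expression.

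In Notch signalling, a ligand on 1 cell activates a Notch receptor on its neighbour, which then switches on Hes genes. Hes1 and Hes5 are repressors that hold back proneural genes such as Neurog2 and keep cortical progenitors undifferentiated. Proneural factors in turn promote expression of the ligand Dll1, so that a cell entering differentiation signals to its neighbours to remain progenitors.

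Basic helix-loop-helix factors bind E-boxes, the letters CANNTG. To show what the starts of these genes look like, RefSeq promoters (build GRCm38.p6) were taken for the genes whose windows held a site shared by both factors. They are given below as the 250 bases before the outermost start, 5′ to 3′ on the gene's strand, with E-boxes in capitals. RefSeq promoters were matched for 6 of the 8 genes, and Hes1 and Mfng were not among them.
Dll1 (chr17:15376933-15377182, minus strand): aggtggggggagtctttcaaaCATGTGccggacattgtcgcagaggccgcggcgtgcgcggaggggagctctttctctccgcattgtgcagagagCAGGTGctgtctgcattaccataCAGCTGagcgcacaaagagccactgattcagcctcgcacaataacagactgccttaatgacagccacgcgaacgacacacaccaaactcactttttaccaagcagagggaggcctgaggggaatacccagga
Dll3 (chr7:28301786-28302035, minus strand): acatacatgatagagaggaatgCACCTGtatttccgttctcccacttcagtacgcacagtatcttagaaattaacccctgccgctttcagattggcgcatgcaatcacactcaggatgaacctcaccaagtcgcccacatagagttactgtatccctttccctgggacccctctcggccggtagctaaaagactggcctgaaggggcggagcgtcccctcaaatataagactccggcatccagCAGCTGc
Notch1 (chr2:26503823-26504072, minus strand): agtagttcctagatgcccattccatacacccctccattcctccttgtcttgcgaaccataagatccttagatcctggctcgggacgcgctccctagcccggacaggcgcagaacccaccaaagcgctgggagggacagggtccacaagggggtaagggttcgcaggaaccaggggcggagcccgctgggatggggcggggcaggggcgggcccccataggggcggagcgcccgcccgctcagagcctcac
Hes5 (chr4:154960673-154960922, plus strand): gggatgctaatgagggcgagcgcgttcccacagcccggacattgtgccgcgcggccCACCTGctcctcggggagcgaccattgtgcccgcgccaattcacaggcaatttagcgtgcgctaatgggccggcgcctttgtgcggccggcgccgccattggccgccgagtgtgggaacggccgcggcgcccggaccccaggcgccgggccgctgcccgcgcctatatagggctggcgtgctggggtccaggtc
Hes6 (chr1:91414039-91414288, minus strand): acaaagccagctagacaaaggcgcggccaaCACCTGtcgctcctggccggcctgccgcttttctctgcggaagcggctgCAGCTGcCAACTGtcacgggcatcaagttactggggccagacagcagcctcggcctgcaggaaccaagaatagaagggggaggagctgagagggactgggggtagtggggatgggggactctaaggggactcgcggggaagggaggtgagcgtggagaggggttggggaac

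The Dll1 and Hes6 stretches each held 3 E-boxes, the Dll3 stretch 2 and the Hes5 stretch 1. The Notch1 stretch had no match. Over the 300 bases from 250 before to 50 after the start, 72.3% of 32851 RefSeq promoters held at least 1 CANNTG, so an E-box there is common. Further letters were searched on both strands over the same 300 bases. CAGATG, an E-box variant bound by proneural factors, was present in 17.2% of all promoters, and TCACACCT, a T-box element, in 1.28%. Neither was in any promoter matched for these genes. TGGGAA, the core of the site of Rbpj, the DNA-binding partner of Notch, was in 25.6% of promoters and occurred 2 times in that of Hes5. These promoters are of another build than the peaks, so no peak could be placed on them. A match or its lack in this stretch says nothing of binding.

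Peaks of both factors were denser in the windows than along the autosomes, and more so for Neurog2. Tbr2 had 11.02 peaks per Mb in the windows against 6.00 per Mb of autosome, a ratio of 1.84. Neurog2 had 7.09 per Mb against 1.08, a ratio of 6.58. Much of this came from Dll1 and Mfng. Without these windows the Tbr2 density was 6.28 per Mb, a ratio of 1.05, and the Neurog2 density 4.19 per Mb, a ratio of 3.89. Leaving out Dll1 alone gave ratios of 1.42 for Tbr2 and 4.998 for Neurog2.

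Counts in each window were read against all non-overlapping autosomal stretches of the same width, called tiles here, which numbered 6810 to 7950 depending on the width. The median tile held 1 Tbr2 peak, and 5 of the 8 windows held more. At least 1 Tbr2 peak was found in 66.3% of tiles of 300 kb and 66.7% of tiles of 310 kb. The share of tiles that held more than 1 was not counted, so the 5 of 8 cannot be set against it. Jag1, Notch1 and Hes1 were among the 5 with 3 peaks each, a common number reached by 31.3%, 32.2% and 28.0% of tiles. Tiles include gene-poor stretches, and whether windows around other genes would also exceed them was not tested. Tile centres fall at arbitrary positions, so whether windows around other genes also hold peaks as near their centre was not tested either. Neurog2 peaks were present in 6 of the 8 windows. In tiles of the same widths that share was 21.9% for Dll1, Hes1 and Hes5, 21.4% for Dll3 and Hes6, 23.5% for Jag1, 24.1% for Notch1 and 22.7% for Mfng.

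**Figure D1:**
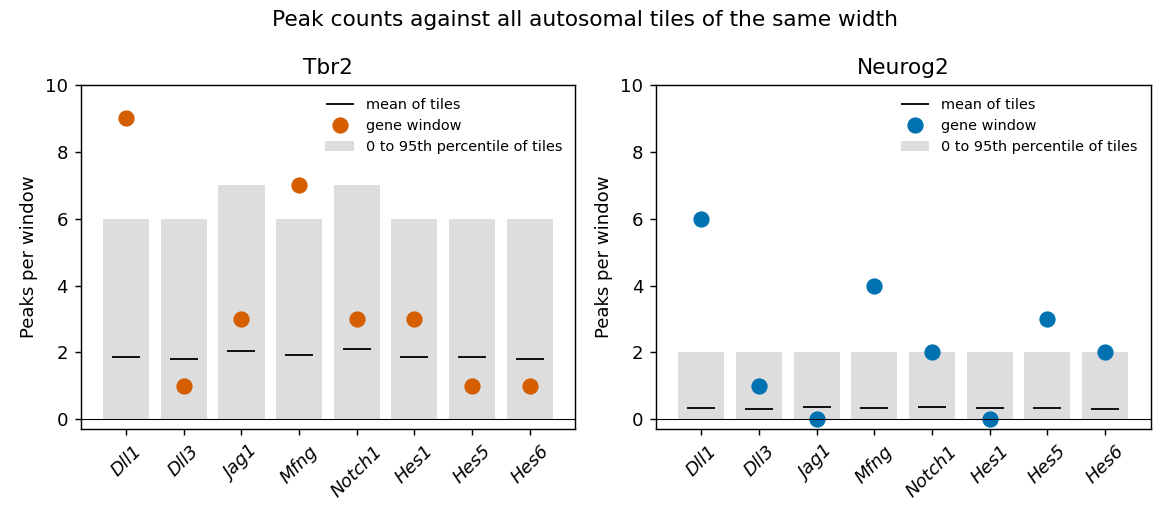
Number of peaks per window (coloured points) for Tbr2 (left) and Neurog2 (right) at each gene, over the range from 0 to the 95th percentile of all autosomal tiles of the same width (grey) and their mean (black dash). Dll1 and Mfng lie above the grey range for both factors, with 9 and 7 Tbr2 peaks and 6 and 4 Neurog2 peaks, Hes5 with 3 Neurog2 peaks lies above it for Neurog2, and Jag1 and Hes1 have 0 Neurog2 peaks.

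Dll1, the Delta ligand that proneural factors are known to activate, had the most peaks of both lists. Its window held 9 Tbr2 peaks, a number reached by 1.77% of tiles, and 6 Neurog2 peaks, reached by 0.325%. All 6 Neurog2 peaks overlapped Tbr2 peaks, and 0.195% of tiles had as many Neurog2 peaks of this kind. Among tiles with at least 1 Tbr2 peak, 2.65% reached the Tbr2 count and 0.468% the Neurog2 count. By each of these counts Dll1 stood in the upper end of the tiles.

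Values at each peak are the authors' own fold change and number of tags (sequence reads in the peak). A score was computed here as the negative log10 of the deposited p-value times 10, and used to rank peaks within a list. The window's strongest Tbr2 peak, chr17:15577173-15578481, lay 72.8 kb to the right of the window centre. It had a fold change of 17.3, 137 tags and a score of 514, the 93.0th percentile of the Tbr2 list. The Neurog2 peak on it, chr17:15578026-15578267, had a fold change of 10.3 and 24 tags, at the 42.0th percentile of its own list. The site was high in the Tbr2 list and below the middle of the Neurog2 list.

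Nearer the centre of the Dll1 window the order of the factors was the other way round. Between 11.04 and 13.7 kb right of the centre, 3 Tbr2 peaks stood within 3.33 kb, and gaps of 691 and 632 bp separated them. Their fold changes were 8.38, 8.13 and 8.18 and their tags 34, 28 and 37. The outer 2 carried Neurog2 peaks, at chr17:15515789-15516112 with a fold change of 13.4 and 43 tags, and at chr17:15518414-15518785 with a fold change of 17.1 and 68 tags. The latter ranked 155 in the Neurog2 list, while its Tbr2 peak, chr17:15518286-15519073, ranked 12344 in the Tbr2 list. This site was at percentile 94.2 of score for Neurog2 and 15.1 for Tbr2. A Neurog2 midpoint as near the centre as the first of these was found in 2.25% of tiles, and a Tbr2 midpoint in 10.8%.

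Shared sites also stood to the left of the Dll1 centre. At -24.7 kb the Tbr2 peak had 59 tags and the Neurog2 peak, chr17:15479999-15480462, 71 tags with a fold change of 12.5. At -44.7 kb there were 51 Tbr2 tags and 32 Neurog2 tags (chr17:15460386-15460639, Neurog2 fold change 10.0). At -119.9 kb the midpoints of the peaks were 1.5 bp apart, with 62 Tbr2 tags and 68 Neurog2 tags (chr17:15384906-15385300, Neurog2 fold change 10.6). Neurog2 tags thus exceeded Tbr2 tags at 4 of the 6 shared Dll1 sites. The remaining 2 Tbr2 peaks, at 55.6 and 63.3 kb, had fold changes of 7.83 and 6.48 and no Neurog2 peak within 9 kb. In RefSeq gene order Ermard and Fam120b flank Dll1, and no peak was assigned to a gene within its window.

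**Figure D2:**
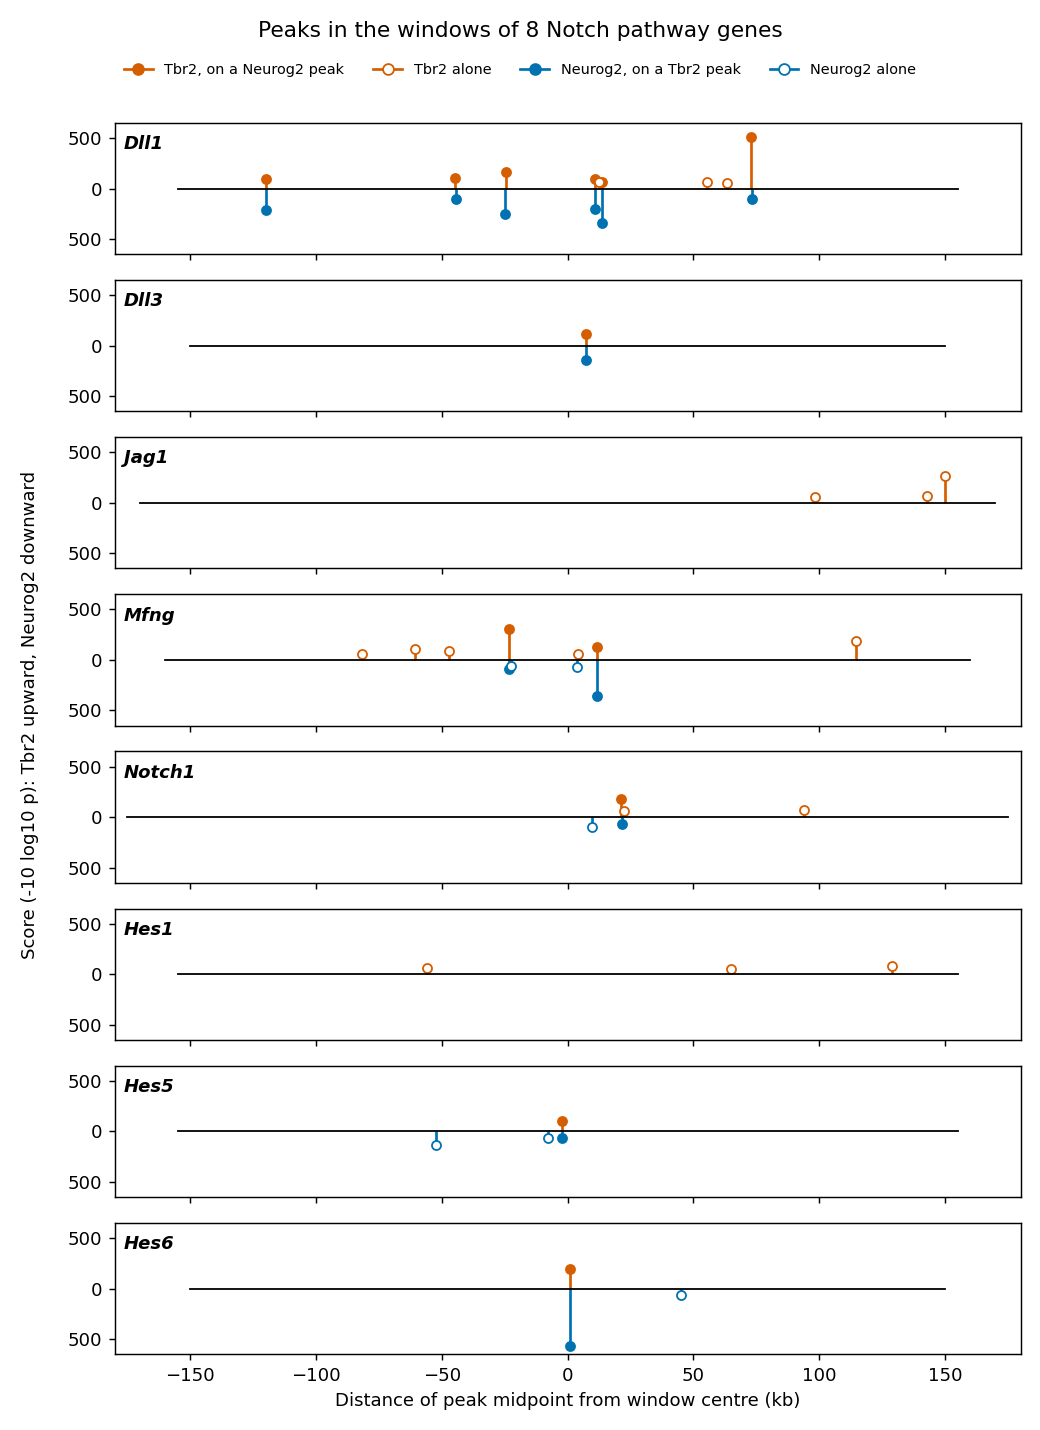
Peaks in each window by distance of the midpoint from the window centre (x axis, kb), with the score of Tbr2 peaks drawn upward and of Neurog2 peaks downward; the black line is the window, filled points overlap a peak of the other factor and open points do not. Scores reach 514 for Tbr2 at Dll1 and 564 for Neurog2 at Hes6, Dll1 has 6 shared sites, and Jag1 and Hes1 show open Tbr2 points alone.

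Dll3, a divergent Delta family member that acts within the cell rather than as a signal to neighbours, had a single shared site. Its Tbr2 peak, chr7:29086987-29087790, had a fold change of 8.62, 45 tags and a score of 113. The Neurog2 peak, chr7:29087174-29087510, had a fold change of 9.29, 46 tags and a score of 147. By score the Tbr2 peak was at the middle of its list and the Neurog2 peak somewhat above it, at the 51.03 and 66.3 percentiles. By fold change both were below the middle, at the 39.7 percentile for Tbr2 and 22.3 for Neurog2. A single Tbr2 peak was reached or exceeded in 66.3% of tiles and a single Neurog2 peak in 21.4%, so both counts were common. The site lay 7.39 kb from the window centre. A Tbr2 midpoint was as near the centre in 7.41% of tiles and a Neurog2 midpoint in 1.18%.

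Jag1, a ligand of the Jagged family, had 3 Tbr2 peaks and no Neurog2 peak. At least 3 Tbr2 peaks were found in 31.3% of tiles. All 3 were in the right part of the window, from 98.2 to 150.0 kb from the centre. The strongest, chr2:137069424-137070662, had a fold change of 16.7 and 74 tags (80.5th percentile of score), and the others had fold changes of 7.35 and 9.79 with 29 and 21 tags. The nearest Neurog2 midpoint was 349 kb from the Jag1 centre. Midpoints as near the centre as these were found in 54.4% of tiles for Tbr2 and 40.1% for Neurog2, so the distances at Jag1 were ordinary.

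Mfng encodes Manic fringe, which adds sugars to Notch and so alters its response to different ligands. The window held 7 Tbr2 peaks, reached by 4.66% of tiles, and 4 Neurog2 peaks, reached by 1.07%. Of the Neurog2 peaks 2 lay on Tbr2 peaks, a count reached by 5.37% of tiles. Among tiles with at least 1 Tbr2 peak the shares were 6.86% for Tbr2 and 1.58% for Neurog2. Mfng was second to Dll1 in the number of peaks of each factor.

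The strongest Neurog2 peak at Mfng, chr15:78601235-78601848, lay 11.5 kb right of the centre with a fold change of 15 and 92 tags, rank 131 in its list. It was 614 bp wide and extended beyond the 516 bp Tbr2 peak under it, chr15:78601297-78601812, which had a fold change of 11.2 and 38 tags. The strongest Tbr2 peak, chr15:78566015-78566973, had a fold change of 12.1, 82 tags and a score of 309. On it lay a Neurog2 peak with a fold change of 9.09 and 28 tags (chr15:78566344-78566631). Here again 1 shared site was led by Neurog2 and the other by Tbr2.

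The remaining Neurog2 peaks at Mfng were weak and close to, but not on, Tbr2 peaks. The peak chr15:78567234-78567396, with 15 tags and a fold change of 11.1, began 260 bp from the strongest Tbr2 peak. The peak chr15:78593682-78593895, with 19 tags and a fold change of 8.06, ended 134 bp from a Tbr2 peak with 24 tags and a fold change of 7.12. That pair was nearest the centre, at 3.79 kb for Neurog2 and 4.30 kb for Tbr2. Midpoints as near the centre were found in 0.792% of tiles for Neurog2 and 4.70% for Tbr2. The other Tbr2 peaks, at -81.7, -60.8, -47.3 and 114.5 kb, had fold changes of 5.69, 7.92, 7.15 and 12.5 and no Neurog2 peak on them. RefSeq gene order places Elfn2 and Card10 beside Mfng.

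Notch1, the receptor, had 3 Tbr2 and 2 Neurog2 peaks, counts reached by 32.2% and 7.74% of tiles. The strongest Tbr2 peak, chr2:26355819-26356938, lay 21.4 kb right of the centre with a fold change of 8.15, 71 tags and a score of 175. On it was a narrow Neurog2 peak of 123 bp, chr2:26356462-26356584, with a fold change of 12.1 and 16 tags, at the 8.07th percentile of score. Another Tbr2 peak began 130 bp further on, with a fold change of 5.8 and 38 tags. The other Neurog2 peak, chr2:26344416-26344685, stood 9.55 kb from the centre and 11.1 kb from any Tbr2 peak, with a fold change of 8.40 and 29 tags. By score, Neurog2 was in the lower part of its list at both Notch1 sites. By fold change the shared Neurog2 peak was near the middle, at the 53.2 percentile, and the other at the 14.8 percentile. A Neurog2 midpoint was as near the centre in 1.63% of tiles and a Tbr2 midpoint as near as the first peak in 18.5%. The third Tbr2 peak, at 94.1 kb, had a fold change of 7.40 and 32 tags. Sec16a and Egfl7 are the neighbours of Notch1 in RefSeq gene order.

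The Hes family genes differed from each other in these lists. Hes1, a repressor switched on by Notch, had 3 Tbr2 peaks, a number reached by 28.0% of tiles, and no Neurog2 peak. The strongest, chr16:30193527-30194106, had a score of 82.3 with a fold change of 8.25 and 31 tags, and the others had fold changes of 9.86 and 5.99 with 28 and 27 tags. All 3 were below the median Tbr2 score. They lay at -55.8, 64.9 and 129 kb, and the nearest Neurog2 midpoint was 181 kb from the centre. By score, the peaks inside the Hes1 window were low in their list. A midpoint as near the centre was found in 38.5% of tiles for Tbr2 and 24.7% for Neurog2, so these distances were common ones. Stronger peaks stood outside the window. A Tbr2 peak 26.6 kb beyond an edge had 92 tags and a score of 251. The nearest Neurog2 peak, 26.2 kb beyond an edge, had 43 tags and a score of 181. Each overlapped a peak of the other factor.

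Hes5 had 1 Tbr2 peak and 3 Neurog2 peaks. Among the 8 windows, Hes5 and Hes6 were the ones with more Neurog2 than Tbr2 peaks. At least 3 Neurog2 peaks were found in 2.43% of tiles and at least 1 Tbr2 peak in 66.7%. The Tbr2 peak, chr4:154332305-154332858, had a fold change of 9.09, 39 tags and a score of 100.1. On it, with midpoints 15.5 bp apart, lay a Neurog2 peak with a fold change of 7.0 and 24 tags, chr4:154332478-154332716. This site was 2.42 kb from the centre by the Tbr2 midpoint, and as near a midpoint was found in 2.34% of tiles for Tbr2 and 0.416% for Neurog2. Another Neurog2 peak, chr4:154326925-154327184, stood 5.12 kb from the Tbr2 peak, and its fold change was 8.29 with 21 tags. The third, chr4:154282770-154282835, was only 66 bp wide, at the 1.19th percentile of width, and had 14 tags but a fold change of 25.04. That fold change rests on few tags. Near the centre, the Neurog2 peaks at Hes5 were low in their list, at ranks 2257 and 2324 of 2640.

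Hes6 encodes a Hes family member that opposes Hes1 and promotes neuronal differentiation. It had the strongest Neurog2 peak of all the windows, chr1:93310700-93311049, with a fold change of 29.1, 88 tags and a score of 564, rank 29 of 2640. The Tbr2 peak at the same place, chr1:93310373-93311266, had a fold change of 10.7, 64 tags and a score of 194, rank 4045 of 14539. The midpoints were 55 bp apart and 0.819 kb (Tbr2) and 0.874 kb (Neurog2) from the window centre. Midpoints as near were found in 0.881% of tiles for Tbr2 and 0.113% for Neurog2. At Hes6, a Neurog2 peak near the top of its list stood close to the centre. A second Neurog2 peak, chr1:93354816-93355051, stood 44.9 kb from the centre with a fold change of 5.83 and 26 tags and no Tbr2 peak within 43 kb. At least 1 Tbr2 peak was found in 66.3% of tiles and at least 2 Neurog2 peaks in 6.43%. Ilkap and Per2 flank Hes6 in RefSeq gene order.

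Across the 8 windows, 12 of 18 Neurog2 peaks overlapped a peak of Tbr2, 66.7% (95% Wilson interval 43.7 to 83.7). Over the whole Neurog2 list the share was 81.3%, which lies within that interval. Without Dll1 the share in the windows was 6 of 12, 50.0% (25.4 to 74.6), and 81.3% lies above that interval. With any other single locus left out it was 64.7% to 73.3%. The difference from the whole list was not tested. Seen from Tbr2, 12 of 28 peaks carried a Neurog2 peak, 42.9% (26.5 to 60.9), against 14.0% of all Tbr2 peaks. Dll1 gave 6 of the 12, and without it 6 of 19 Tbr2 peaks, 31.6%, were shared. The intervals cover counting error only and treat peaks of a window as independent. Of the 6 Neurog2 peaks off Tbr2 peaks, 2 were at Mfng, 2 at Hes5, 1 at Notch1 and 1 at Hes6. They had 14 to 29 tags, all below the Neurog2 list median of 30, while 8 of the 12 shared ones were above it. Over the whole list 53.8% of shared and 32.6% of unshared Neurog2 peaks were above it, a difference in the same direction.

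Taken over shared and unshared peaks together, the median peaks of these windows were somewhat below those of their lists by score and fold change. By tags they were about level. The median Tbr2 score was 94.1 against 110.1 over the whole list, and the median fold change 8.165 against 9.58. For Neurog2 the median score was 99.8 against 111 and the median fold change 10.45 against 11.8. The median number of tags was 38.5 against 38 for Tbr2 and 28.5 against 30 for Neurog2, and 14 of the 28 Tbr2 peaks were above their list's median. Shared Tbr2 peaks of the windows had a median score of 119 and 55 tags, against 254 and 71 for shared ones of the whole list. Shared Neurog2 peaks were above by score and tags, with 173 and 44.5 against 121 and 32. Their median fold change was lower, 11.36 against 12.01. Unshared peaks were below the unshared ones of their lists, with median scores of 64.5 against 99.9 for Tbr2 and 68.4 against 85.8 for Neurog2. Of 28 Tbr2 peaks 9 had a score above the list median, where 50.0% of all peaks are, and of 18 Neurog2 peaks 8 did, against 50.0%. The strongest 10.0% of the Tbr2 list included 1 of the 28, at Dll1. The strongest 10.0% of the Neurog2 list included 3 of the 18, at Hes6, Mfng and Dll1.

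The balance of tags between the factors varied among the shared sites. At 7 of the 12 the Neurog2 peak held more tags than the Tbr2 peak, against 11.6% of all 2146 shared pairs. The median ratio of Neurog2 to Tbr2 tags was 1.06 over the 12, from 0.175 to 2.42, and 0.459 over all pairs (interquartile range 0.287 to 0.711). Tags were not scaled for library depth, which is unknown, but the scale is common to all pairs. The 7 sites were 4 at Dll1 and 1 each at Dll3, Hes6 and Mfng. The highest ratio, 2.42, was at the Mfng site with 92 Neurog2 tags, and 0.14% of all pairs had a ratio as high. At the other end stood the strongest Dll1 Tbr2 peak, with a ratio of 0.175 that 91.5% of pairs reached or exceeded. Without Dll1 the count was 3 of 6. Pairs at 1 gene share their surroundings, and the difference from all pairs was not tested.

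**Figure D3:**
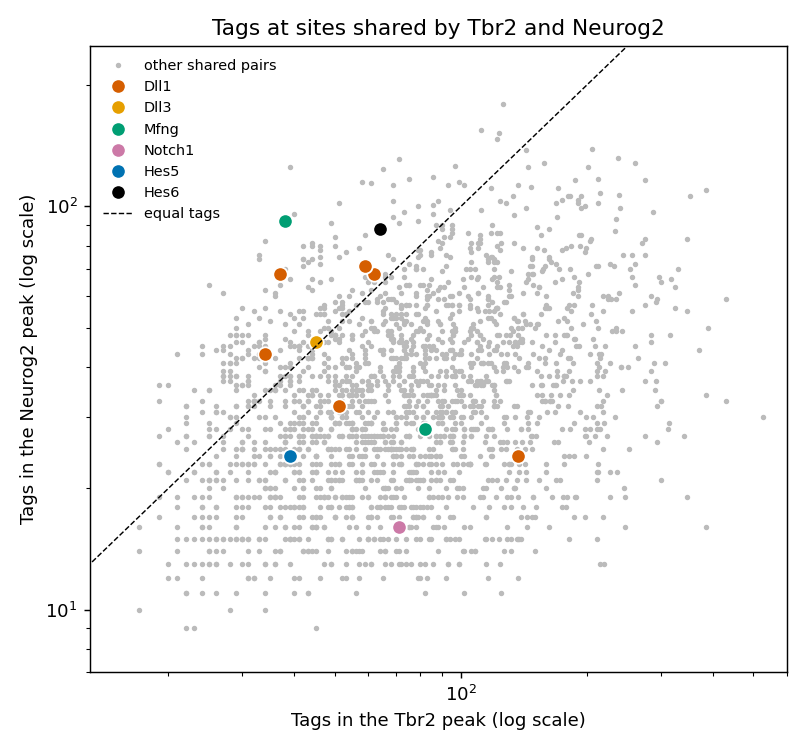
Tags in the Tbr2 peak (x axis, log scale) and in the Neurog2 peak (y axis, log scale) at each of 2146 shared pairs, with the 12 pairs in the Notch pathway windows coloured by gene and the others in grey. Of the 12, 7 lie above the dashed line of equal tags, led by the Mfng site with 38 Tbr2 and 92 Neurog2 tags, where 11.6% of all pairs lie above it.

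The positions of the factors within shared sites were close. Midpoints were a median of 67.5 bp apart, from 1.5 to 319.5 bp, and 9 of the 12 pairs were within 100 bp. Over all pairs the median was 75.5 bp and 60.8% were within 100 bp. In 11 of the 12 the Neurog2 peak lay wholly inside the Tbr2 peak, as in 98.1% of all pairs.

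Neurog2 peaks gathered in the central part of the windows. The inner 1.27 of the 2.54 Mb, the middle of each window, held 17 of the 18 Neurog2 peaks and 20 of the 28 Tbr2 peaks. That is 13.4 Neurog2 peaks per Mb in this inner part and 0.787 per Mb in the outer parts. For Tbr2 the densities were 15.7 and 6.30 per Mb. The outer Tbr2 density was close to the autosomal 6.00, and the only Neurog2 peak in an outer part was the Dll1 site at -119.9 kb. No mm9 gene models were used here, so distances are from the window centre and not from a gene's start. Whether windows around other genes hold more peaks in their central part was not tested.

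No peak lay across a window edge. The member nearest an edge was the strong Jag1 Tbr2 peak, 19.96 kb inside, with 74 tags. Just outside, the nearest were a shared site beyond the Notch1 window, with a Tbr2 peak 5.87 kb out (96 tags, fold change 12.9) and a Neurog2 peak 6.12 kb out (30 tags, fold change 8.41). Their scores of 280 and 107 were above the highest inside the Notch1 window, 175 for Tbr2 and 95.1 for Neurog2. A slightly wider Notch1 window would have included this site. Counting peaks that touched a window in any part gave the same 28 and 18.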

How the data were processed

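ChIP-seq peaks of Tbr2 and Neurog2 were analysed, from 1 library each. Per the submitters' processing notes, Bowtie 0.12.3, MACS 1.4 and build mm9 were used; what each did, with which settings and control, is not given in the sources used here. Fixation was with 2 mM disuccinimidyl glutarate (45 min) and 1% formaldehyde (10 min), per the labels' protocols. Per the file headers, lists were exported from GeneProf. The authors deposited a text field per peak with fold change, FDR, p-value and tag number, used here as deposited, and a score column that is 750 throughout and was not used. Listed p-values reach 9.98e-06 for Tbr2 and 8.65e-07 for Neurog2. Listed FDR values reach 0.0233 for Tbr2 and 0.1 for Neurog2. The highest among the Neurog2 peaks of the windows were 0.0785 and 0.0598 for the unshared Mfng peaks and 0.0645 for the shared Notch1 peak. Library depth is unknown.

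Python 3.11.15, numpy 2.4.6, pandas 2.3.3 and scipy 1.17.1 were used. An overlap of 1 bp or more counted as sharing. Tiles of each window's width were laid end to end from the first to the last peak of each of the 19 autosomes, assembly gaps included. This full set replaced random windows. Counting was tested on simulated peaks. Coordinates count from 1. Windows and gene lists were chosen with earlier results of these data known. Named peaks are every Neurog2 peak in a window with its Tbr2 peak, and the highest-scoring Tbr2 peak of each window; further Tbr2 peaks were named after their values were seen. Neighbouring genes come from the RefSeq table of GRCm38.p6, by order only, and all 8 genes were matched. The other Notch pathway genes planned for counting need mm9 gene models and were not analysed here. Alternatives changed the score limit, window size, overlap rule, loci, tile start and measure of strength.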

Additional observations from a re-analysis of the deposited data

How the results depend on the processing

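No paired analysis was possible because each factor has 1 library. With a score of at least 100 required in both lists, the windows held 12 Tbr2 and 9 Neurog2 peaks, and the median scores were 169 for Tbr2 and 217 for Neurog2, since that limit removes the weaker peaks. Without Dll1 and Mfng, a choice made after seeing the data, 12 Tbr2 and 8 Neurog2 peaks were left. Leaving out each locus in turn gave 19 to 27 Tbr2 peaks, 12 to 18 Neurog2 peaks, 50.0% to 73.3% of Neurog2 peaks shared, 31.6% to 48.0% of Tbr2 peaks shared, and median Tbr2 scores of 82.3 to 97.8. Median Neurog2 scores ranged from 80.0 to 115. The share of pairs with more Neurog2 tags was 50.0% to 63.6% when each locus was left out, a check added after seeing the data. With tags per 100 bp in place of tags, also added then, it was 91.7%, against 82.5% of all pairs. Neurog2 peaks are narrower, which raises this measure. By score it was 58.3% against 24.5% of all pairs, and by fold change 75% against 41.7%. Nearest edges within 1 kb gave 77.8% of Neurog2 and 53.6% of Tbr2 peaks shared. Shares over the whole lists were not counted under this looser rule. These values therefore cannot be set against the whole-list shares given above for overlap. With 12 pairs and 46 peaks in all, small differences between loci cannot be resolved.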
